A study of Mus musculus with 29 samples.

Results

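Small RNA of gonadal white adipose tissue (gWAT) from female New Zealand Obese mice was counted against several annotations, and the sequences annotated as piRNAs and counted well are described here. Members were chosen by their measured counts: all sequences of type piRNA with a raw count of 100 or more on average over the 29 libraries, which 166 of the 1205 piRNA-annotated sequences met. The whole table lists 5355 features. The choice used only this mean over all libraries, so levels are given as a description, while the difference between groups was tested. The mice were of the strain NZO/HIBomDife and 10 weeks old. All had been on a high-fat diet and had been sorted by a risk score into 15 diabetes-prone (DP) mice and 14 diabetes-resistant (DR) mice, the latter serving as controls. The mice are genetically identical, and the split into DP and DR is therefore a phenotypic one, made before the onset of diabetes. In each library the tissue was a mixture of cells, and a lower count can come from fewer cells of a type or from less RNA per cell, which cannot be told apart here.

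PIWI-interacting RNAs (piRNAs) are small RNAs, slightly longer than miRNAs, that load PIWI proteins and silence transposons, mainly in the germ line. They are cut from long single-stranded precursors without Dicer, often many from 1 genomic cluster, and carry a methylated 3′ end. PIWI proteins are scarce in most adult somatic tissues, and piRNA databases are known to hold entries that overlap fragments of other small RNAs such as snoRNAs, tRNAs and Y RNAs. Of the members, 33 carried a database name (mmu_piR) and 133 were predictions (novel_pir), out of 420 database-named and 785 predicted entries in the table. No 2 members had the same counts in all libraries. The sequence, length and genomic position of the members were not used here, so no role is given to any of them.

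The sequences shown belong to named small RNAs of other types that the results on likeness turn on. For the 2 miRNAs it was the hairpin count that followed a member most closely, and the mature strand of that name is given from RefSeq (GRCm38.p6) with its seed, bases 2 to 8, in capitals. The miR-652-3p strand lies at chrX:142739060-142739080 on the plus strand and the miR-125a-5p strand at chr17:17830817-17830840 on the plus strand, and the 2 seeds differ.
mmu-miR-652-3p: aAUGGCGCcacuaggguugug
mmu-miR-125a-5p: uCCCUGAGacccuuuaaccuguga
The other 3 are from GENCODE (GRCm38): the C/D box snoRNA Snord59a (chr10:128084143-128084216, plus strand), with the letters TGATGA of its C box and CTGA of its D box in capitals, and the Y RNAs Rny1 (chr6:47788069-47788180, minus strand) and Rny3 (chr6:47781624-47781725, plus strand). The first motif followed by the second, read on the transcript strand only and with no overlap, is held by 23.95% of the 1507 snoRNA transcripts of GENCODE. The table counts these RNAs by Rfam family, so which locus was counted is not known.
Snord59a: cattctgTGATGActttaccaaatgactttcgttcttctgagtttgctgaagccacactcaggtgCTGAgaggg
Rny1: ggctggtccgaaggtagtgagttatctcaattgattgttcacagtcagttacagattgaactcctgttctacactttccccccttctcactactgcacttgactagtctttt
Rny3: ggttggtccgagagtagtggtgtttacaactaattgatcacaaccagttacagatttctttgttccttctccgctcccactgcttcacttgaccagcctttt

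The libraries held 24266300 to 27662601 counts over all features. One DP library, number 185 in the labels, stood apart in Y RNA and had the lowest share of snoRNAs. Y RNA took 0.0118% of the counts of named features there and at least 0.105% in each other library. The snoRNAs took 0.0464% there, and the next lowest share was 0.0540% in library 197. Its shares of rRNA (0.433%) and tRNA (0.0659%) were within the range of the other libraries. Of the 33 database-named members, 18 had their lowest level in this library, and the main results that rest on it are given with and without it. Of 25 miRNAs listed as markers of gonad and germ line, 3 were counted well enough for a test and none was called, and their summed level was 8.17 to 11.8 CPM (counts scaled by library size after TMM normalization, not divided by length) in DR and 8.98 to 15.2 CPM in DP. Of the other marker lists, 4 of 6 adipocyte, 2 of 4 smooth muscle and mesenchyme, 1 of 2 endothelial and 1 of 2 lymphocyte markers were lower in DP. Higher in DP were 2 of 4 myeloid, 2 of 6 epithelial, 2 of 3 multiciliated epithelium, 1 of 4 smooth muscle and mesenchyme and 1 of 2 lymphocyte markers. No marker of red cells, muscle, liver or pancreas was called.

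The members together took a small share of the counts, and the group means of this share differed by less than 1 SD. They held 1.25% ± 0.165 (SD, n = 15) of the counts of named features in DP and 1.27% ± 0.156 (SD, n = 14) in DR, and 95.8% and 95.7% of all piRNA-annotated counts. A single sequence, novel_pir204, accounted for 27.8% ± 4.26 of the members' counts in DP and 27.7% ± 3.43 in DR. The 10 most abundant members accounted for 72.2% and 72.3%. Database-named members took 18.7% ± 7.31 of the members' counts in DP and 22.0% ± 9.13 in DR, with single libraries from 7.68% to 42.0%.

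**Figure D1:**
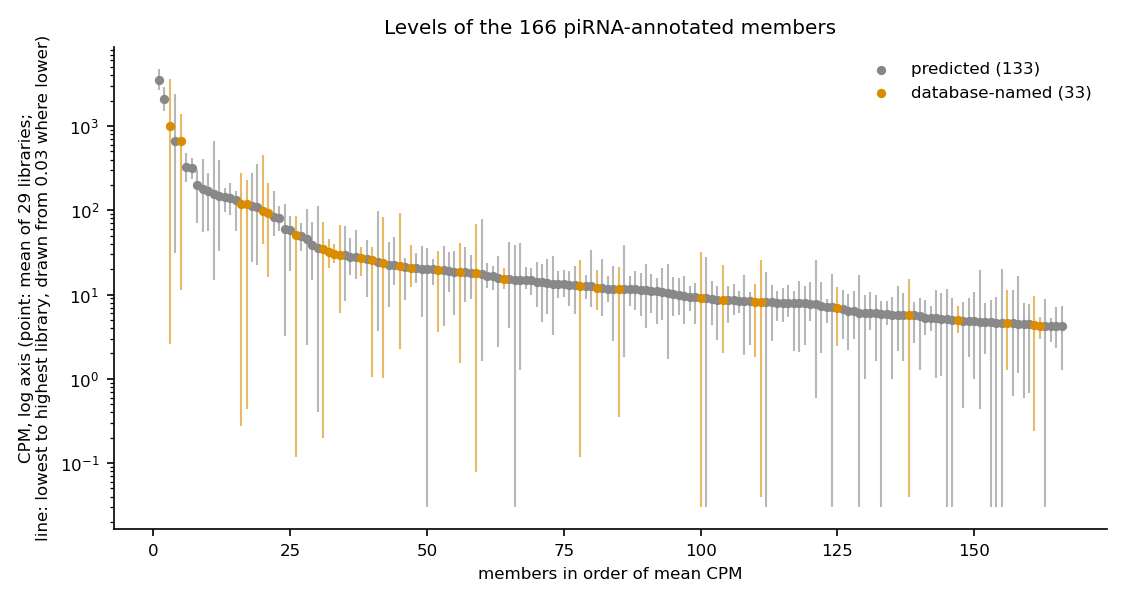
Level of each of the 166 members in CPM (log axis), ordered by mean level, with the mean of 29 libraries as a point and the lowest to highest library as a line. Database-named members, such as mmu_piR_000935 with 2.60 to 3623 CPM, often have long lines, and the 2 most abundant predictions have short ones.

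Levels fell steeply from the first members to the last. The most abundant member, novel_pir204, had 2656 to 4677 CPM in DP (median 3371) and 2827 to 4756 CPM in DR (median 3588). The second, novel_pir26, had 1640 to 2804 CPM in DP (median 2105) and 1493 to 2915 CPM in DR (median 1988). Both groups covered the same range for each of these. The most abundant database-named member, mmu_piR_000935, had 2.60 to 2169 CPM in DP (median 976) and 129 to 3623 CPM in DR (median 863). It thus spanned more than the 2 predictions above it in both groups, and its lowest value came from library 185. Of the 166 members, 28 had a mean raw count of 1000 or more, and 14 were at 0 in at least 1 library. The 3 members just inside the limit were novel_pir703, novel_pir480 and novel_pir573 with mean raw counts of 102.4, 102.2 and 101.2, and the 3 piRNA-annotated sequences just outside it were novel_pir268, novel_pir765 and novel_pir646 with 99.7, 98.9 and 98.6.

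The spread between mice of a group differed widely among members. The within-group coefficient of variation (SD over mean) ran from 11.7% to 114% with a median of 34.1%, against a median of 20.01% for mature miRNAs and 39.8% for snoRNAs with the same minimum count. It had a median of 46.2% in database-named and of 31.9% in predicted members. The steadiest members were novel_pir323 (11.7%), novel_pir820 (14.0%) and mmu_piR_031448 (14.0%). The most variable were novel_pir190 (114%), novel_pir760 (110%) and novel_pir155 (101%). Of these, novel_pir760 had 38.2 to 2415 CPM in DP and 30.7 to 2071 CPM in DR, so the same wide range was met in both groups.

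Few members differed between DP and DR. By edgeR's quasi-likelihood test, adjusted by the Benjamini-Hochberg method over the 1891 features of all types with a mean count above 10, 6 members were higher and 4 lower in DP at an adjusted p under 0.05, and 156 did not pass. Of all features tested, 16.1% were called (8.83% higher and 7.3% lower), against 6.02% of the members. Among features of other types that also had a mean count of 100 or more, 27.9% were called. By type, these were 29.7% of mature, 27.9% of hairpin and 33.9% of precursor miRNA features. Other types at this count were called about as rarely as the members, with 8.7% of 23 snoRNAs, 10% of 10 other Rfam families and 0 of 8 rRNAs. All 166 members passed the filter on low counts, and the 10 called were all predictions. None of the 33 database-named members was called by edgeR, DESeq2 or limma-voom, while 2 of them had an unadjusted p under 0.05 with each tool. Without adjustment, 25 of the 166 members and 26.4% of all features had a p under 0.05 in edgeR. At the same minimum count of 100 and over all types, members included, 24.1% of features were called. The median log2 fold change of the members (DP over DR) was -0.08, with 54 above and 112 below 0, and that of all features was -0.02. Among the 325 further piRNA-annotated sequences that were tested with lower counts, 1 was higher and 5 were lower.

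**Figure D2:**
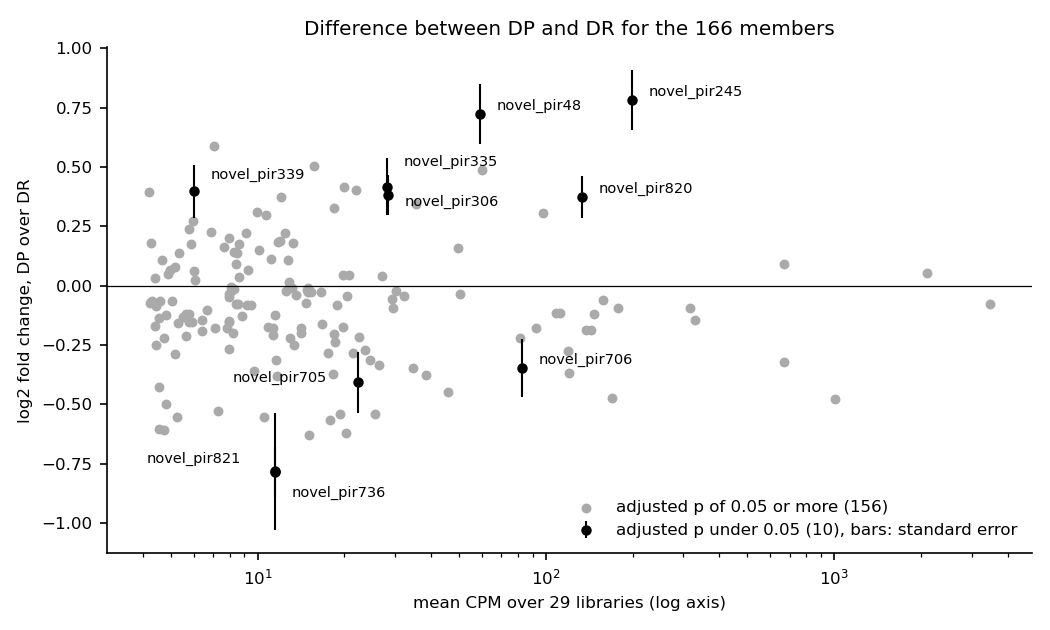
Log2 fold change of each member (DP over DR) against its mean CPM (log axis), with the 10 members at an adjusted p under 0.05 named in black with their standard error. The called members lie between -0.79 and 0.78, and the 2 most abundant members, novel_pir204 and novel_pir26, lie near 0.

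The pair novel_pir245 and novel_pir48 showed the clearest rise in DP. For novel_pir245, DP libraries had 193 to 301 CPM (median 255) and DR libraries 71.2 to 220.2 CPM (median 146). Every DP library was above the DR median, and 3 of 14 DR libraries lay above the lowest DP library. Its log2 fold change was 0.78 (standard error 0.13) with an adjusted p of 3.75e-05 in edgeR. For novel_pir48, DP libraries had 57.9 to 85.1 CPM (median 73.5) and DR libraries 19.1 to 65.3 CPM (median 43.1), with the same degree of overlap. Its log2 fold change was 0.72 (standard error 0.13, adjusted p = 8.80e-05, edgeR). The log2 CPM of both, after subtracting group means, correlated at r = 0.96 over 29 libraries, so they are not 2 separate observations. Among features of other types, novel_pir245 was most like mature miR-34b-3p (r = 0.74), a miRNA of multiciliated epithelium, which was 17.5 to 41.5 CPM in DR and 43.0 to 64.1 CPM in DP (log2 fold change 0.95, adjusted p = 1.04e-06, edgeR). Of the 3 markers of multiciliated epithelium, 2 were called higher in DP. The sum of the 3 was 41.7 to 67.6 CPM in DP and 36.9 to 58.8 CPM in DR. Its medians were close, at 47.4 CPM in DP and 47.3 CPM in DR. Most of this sum came from miR-449a-5p, with a mean raw count of 958 against 53.0 for miR-34b-5p and 161 for miR-34c-5p. The part of multiciliated cells in the rise of novel_pir245 was not tested. The closest feature of another type to novel_pir48 was mature miR-126b-3p (r = 0.72), which did not pass the test.

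The other 4 members that rose did so by about 1.3-fold. For novel_pir820, DP libraries had 122 to 170 CPM (median 148) and DR libraries 56.6 to 155 CPM (median 118). All 15 DP libraries were above the DR median, 5 DR libraries exceeded the lowest DP library, and 10 DP libraries lay below the highest DR library. Its log2 fold change was 0.37 (standard error 0.09, adjusted p = 0.0031, edgeR). For novel_pir306, DP libraries had 25.6 to 46.3 CPM (median 30.2) and DR libraries 17.0 to 31.3 CPM (median 24.4), again with all 15 above the DR median. For novel_pir335, DP libraries had 24.1 to 58.3 CPM (median 29.9) and DR libraries 15.3 to 31.5 CPM (median 24.5). The highest of these, 58.3 CPM, came from library 206, and the other DP libraries reached 37.7 CPM. For novel_pir339, DP libraries had 4.77 to 10.6 CPM (median 6.12) and DR libraries 3.81 to 7.35 CPM (median 5.14), and its highest library was also 206. The log2 fold changes of the last 3 were 0.38, 0.42 and 0.40, with adjusted p-values of 0.00145, 0.0147 and 0.0109 from edgeR. Of these, novel_pir335 and novel_pir339 varied together (r = 0.83 after subtracting group means), while novel_pir335 and novel_pir306 had r = 0.03. The features of another type most like novel_pir335, novel_pir339 and novel_pir306 were the hairpin of miR-34c-3p (r = 0.65), the hairpin of miR-5099 (r = 0.76) and mature miR-92a-3p (r = 0.63). Of these, only the miR-34c-3p hairpin was itself called between groups (log2 fold change 0.74, adjusted p = 9.55e-05, edgeR). Without library 185 the closest feature to novel_pir335 was the miR-5099 hairpin (r = 0.70), ahead of the miR-34c-3p hairpin (0.65).

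Among the 4 members that fell in DP, novel_pir736 stood out. DP libraries had 6.50 to 11.3 CPM (median 8.21) and DR libraries 7.97 to 18.9 CPM (median 15.0). All 15 DP libraries were below the DR median. Of the 14 DR libraries, 2 lay below the highest DP library, while 9 of 15 DP libraries lay above the lowest DR library. Its log2 fold change was -0.79 (standard error 0.10, adjusted p = 3.30e-06, edgeR), the smallest adjusted p among the members. Among features of other types it was most like the hairpin of miR-193a-5p (r = 0.75), whose log2 fold change was -0.41. For novel_pir821, DP libraries had 1.82 to 15.6 CPM (median 8.42) and DR libraries 7.48 to 39.0 CPM (median 12.7), with the highest value in DR library 200. Its log2 fold change was -0.78 (adjusted p = 0.0270, edgeR), and without library 200 it was -0.59 (adjusted p = 0.0723) and without DR library 193 -0.69 (adjusted p = 0.0543), so the call rests on single libraries. For novel_pir705, DP libraries had 12.8 to 25.04 CPM (median 19.0) and DR libraries 16.5 to 48.4 CPM (median 22.4). The adjusted p of novel_pir705 was 0.0247 and rose to 0.0530 without DR library 190. For novel_pir706, DP libraries had 50.04 to 94.1 CPM (median 73.0) and DR libraries 65.1 to 169 CPM (median 83.6). It passed narrowly (log2 fold change -0.35, adjusted p = 0.0479, edgeR), lost its call in 16 of the 29 fits that each left out 1 library, and varied with novel_pir705 (r = 0.92). For novel_pir821, novel_pir705 and novel_pir706, the highest r with a feature of another type over all libraries was 0.69, 0.57 and 0.58.

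**Figure D3:**
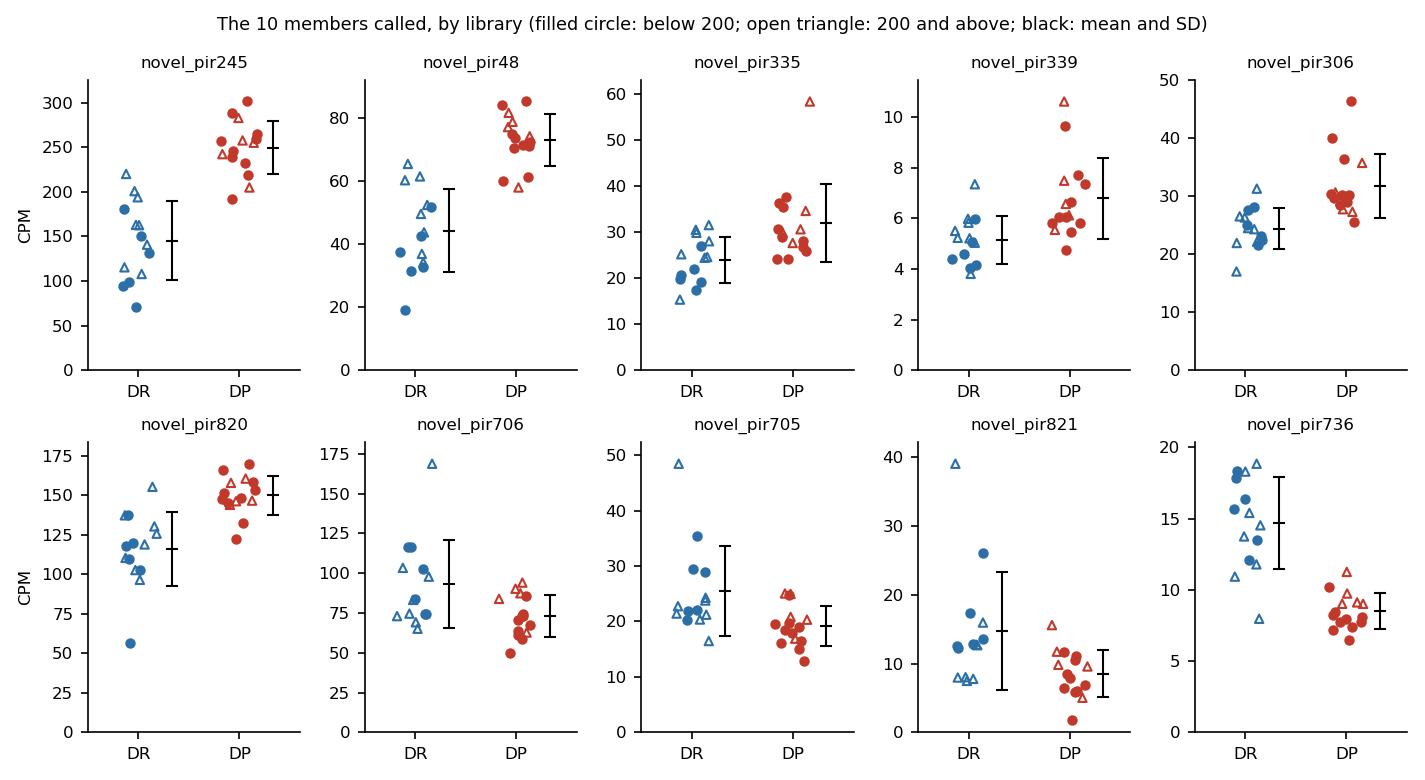
CPM of the 10 called members in each library (y axes start at 0), DR in blue and DP in red, filled circles for library numbers below 200 and open triangles for 200 and above, with the mean and SD in black. The groups overlap in every panel, least for novel_pir245 and novel_pir48.

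None of the 166 members had groups that did not overlap at all. How many features of other types had such groups was not counted, so whether members differ from other types in this is not known. Mature miR-34b-3p was such a feature, with 17.5 to 41.5 CPM in DR and 43.0 to 64.1 CPM in DP. The call of further members depended on which libraries were used. For the steadiest member, novel_pir323, DP libraries had 112 to 155 CPM (median 136) and DR libraries 96.0 to 184 CPM (median 157). All 15 DP libraries were below the DR median, and its log2 fold change was -0.19 (standard error 0.07, adjusted p = 0.0542, edgeR). Its lowest value came from DR library 186, and without this library the log2 fold change was -0.23 and the adjusted p 0.00213. It was called in 3 of the 29 fits that each left out 1 library, the others being those without DP library 202 or 204 (adjusted p of 0.0370 in both). The database-named mmu_piR_000273 had 1.06 to 28.7 CPM in DP (median 21.4) and 19.0 to 36.4 CPM in DR (median 31.4). All 15 DP libraries were below the DR median, the lowest being library 185. With all libraries its log2 fold change was -0.54 (standard error 0.22, adjusted p = 0.108, edgeR), and without library 185 it was -0.45 (adjusted p = 0.00310). Without library 185, novel_pir144, novel_pir330, novel_pir478, novel_pir688 and novel_pir761 were also called as lower, with log2 fold changes from -0.76 to -0.27, and novel_pir706 was not (adjusted p = 0.0549). The choice to name these members and mmu_piR_000273 came after seeing their values. The other abundant members did not pass with all libraries and no further term. For novel_pir142, 14 of 15 DP libraries were below the DR median, with 68.6 to 273 CPM in DP and 56.3 to 277 CPM in DR (log2 fold change -0.48, adjusted p = 0.152, edgeR). With the summed snoRNA and Y RNA level as a term it was called (log2 fold change -0.59, adjusted p = 0.0461). For mmu_piR_000935, the log2 fold change of -0.48 had a standard error of 0.53. For novel_pir27 and novel_pir212, with medians of 314 and 304 CPM in DP and 339 and 314 CPM in DR, the log2 fold changes were -0.15 and -0.09. For novel_pir226, with 54.8 to 406 CPM in DP and 102 to 352 CPM in DR, it was -0.09. The 2 most abundant members had log2 fold changes of -0.08 (standard error 0.08) for novel_pir204 and 0.05 (standard error 0.08) for novel_pir26. With library number of 200 or above as a term in edgeR, novel_pir27 (log2 fold change -0.23, adjusted p = 0.0191) and novel_pir478 (-0.27, adjusted p = 0.0199) were called as lower in DP. As higher, this fit added novel_pir338 (0.44, adjusted p = 0.00262), the database-named mmu_piR_032865 (0.47, adjusted p = 0.0171) and novel_pir118 (0.28, adjusted p = 0.0387). It lost novel_pir706 (adjusted p = 0.0673). With the number as a linear term, novel_pir24 was called as lower (log2 fold change -0.25, adjusted p = 0.0361) and novel_pir118 was not called.

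The difference between groups was also looked at by library number, since 10 DP and 6 DR libraries had a number below 200, and 5 DP and 8 DR libraries one of 200 or more. What the number stands for is not stated. Below 200, 8 members were higher and 7 lower in DP, where 15.9% of all features were called, and all 10 of the calls above were among them. From 200 on no member was called by edgeR, where 10 had an unadjusted p under 0.05 and 0.317% of all features (6 of 1891) were called. For novel_pir245 the log2 fold change was 1.07 below 200 (adjusted p = 4.06e-04) and 0.61 from 200 on (adjusted p = 0.130), and for novel_pir736 it was -0.94 (adjusted p = 3.4e-05) and -0.52 (adjusted p = 0.211), both with edgeR. All 10 called members had the same direction on both sides of 200. The difference between these 2 effects, tested as an interaction in edgeR, was called for none of the members and for no feature, while 2 members and 3.81% of all features had an unadjusted p under 0.05.

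The level of some members went with the library number itself. In a model with the group as a further term, 29 of 166 members (15 higher and 14 lower from 200 on) differed between libraries below 200 and those from 200 on, at an adjusted p under 0.05 in edgeR. This is 17.5% of the members and 15.7% of all features tested. None of the 10 members called between DP and DR was among the 29. The overlap of the 2 sets of calls over all features was not counted. The second most abundant prediction, novel_pir26, was lower from 200 on by 0.26 on the log2 scale, and novel_pir27 fell from 365 ± 59.2 CPM (SD, n = 16) to 286 ± 39.0 CPM (SD, n = 13). The widest shifts were those of novel_pir205 and novel_pir203. For novel_pir205, all 15 libraries from 183 to 198 had 16.2 to 38.6 CPM, whereas of the 14 libraries from 199 on, 13 had 0 to 3.82 CPM and DR library 205 had 21.1 CPM. The mean was 24.7 ± 8.32 CPM below 200 and 3.08 ± 5.49 CPM from 200 on. The level of novel_pir203 parted the same libraries (7.93 to 18.6 CPM against 0 to 1.84 CPM), and the 2 members correlated at r = 0.99. Neither passed the test between DP and DR (log2 fold changes -0.01 and -0.02).

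**Figure D4:**
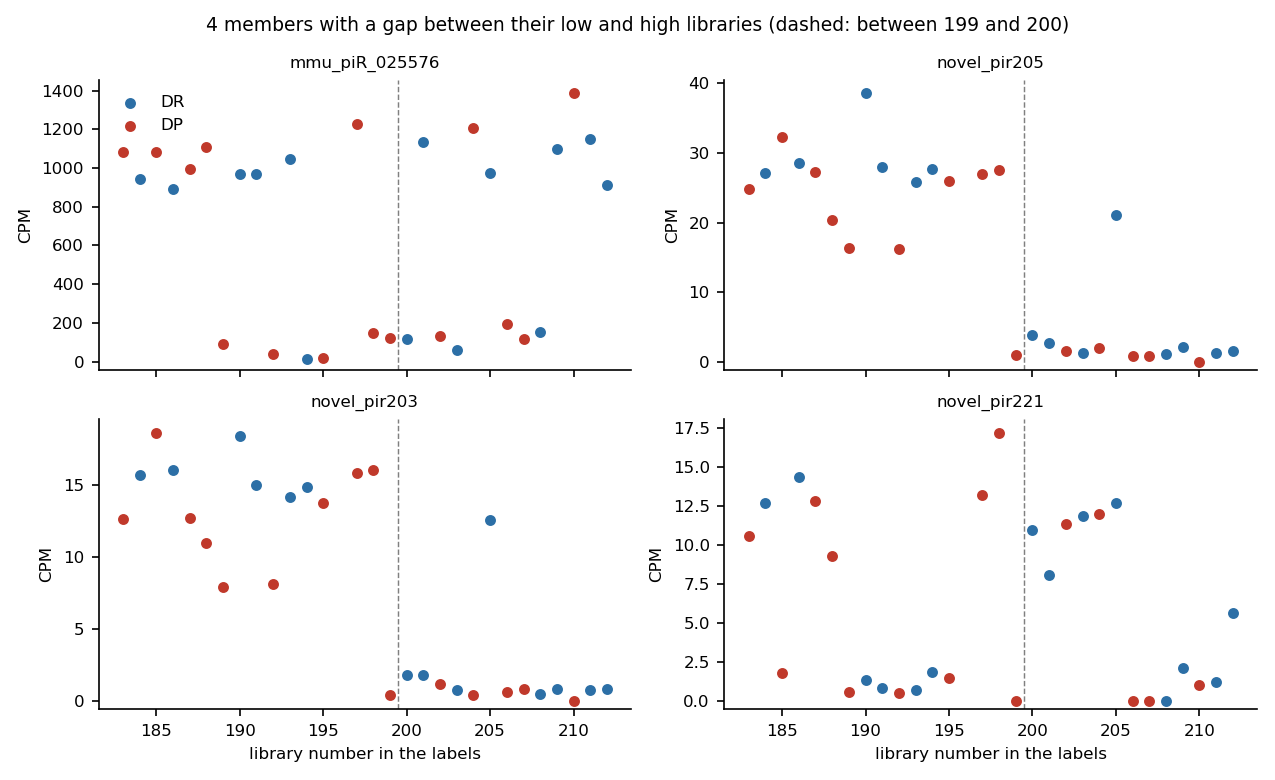
CPM of 4 members by library number, DR in blue and DP in red, with a dashed line between 199 and 200. In novel_pir205 and novel_pir203 the change lies between libraries 198 and 199 with library 205 as the exception, while mmu_piR_025576 and novel_pir221 have low and high libraries on both sides of the line.

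In other members a gap in the levels parted neither DP from DR nor low from high library numbers. The database-named mmu_piR_025576 had 11.5 to 193 CPM in 12 libraries and 889 to 1386 CPM in the other 17, with no library between. Of the 12, 8 were DP and 4 were DR, and both ranges were met on both sides of library number 200. Group medians (193 CPM in DP and 957 CPM in DR) therefore fall on opposite sides of the gap, although the log2 fold change of -0.32 had a standard error of 0.59 (adjusted p = 0.818, edgeR). The highest r of this member with a feature of another type was 0.49, the lowest such value of all 166 members. The rarer novel_pir221 had 0 to 2.09 CPM in 15 libraries and 5.66 to 17.2 CPM in 14, with 8 and 7 of them DP. These members were singled out after their values were seen.

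Many database-named members had a snoRNA or Y RNA as the feature whose levels across libraries were most like theirs, and 15 of 33 had a miRNA. Most predicted members had a miRNA, which was also the type of 83.0% of the features searched. For each member, the feature of another type with the highest Pearson r was found, using log2 CPM after subtracting the group means over 29 libraries that share depth and scaling, and the values are given as a description. Among the 33 database-named members the most alike feature was a snoRNA for 13, another Rfam family for 4, a miRNA for 15 and an rRNA for 1, and the median of the best r was 0.91. Among the 133 predicted members it was a miRNA for 124, a snoRNA for 5 and another feature for the rest, with a median of 0.78. Of the features searched, 7.07% were snoRNAs, and 83.0% were mature or hairpin miRNAs. Without library 185 the median for database-named members was 0.84, and the number at r of 0.9 or above fell from 18 to 11, while for predicted members it fell from 19 to 16. The closest feature was then a snoRNA for 16, another Rfam family for 2 and a miRNA for 14 of the database-named members, and a miRNA for 115 and a snoRNA for 12 of the predicted ones. The summed level of snoRNAs and Y RNA correlated with database-named members at a median r of 0.72 (0.62 without library 185) and with predicted members at -0.19 (-0.11).

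The closest match was that of mmu_piR_000935 with SNORD59, a snoRNA family of the C/D box class, which guides methylation of ribosomal RNA, at r = 0.99 (0.98 without library 185). The 2 fell together in library 185, where the member had 2.60 CPM and SNORD59 was at 0. The member was by far the more abundant of the 2, with a mean raw count of 24373 against 93.0 for SNORD59. Y RNA, the small RNA bound by the Ro60 protein that takes part in the start of DNA replication, was with all libraries the feature most like mmu_piR_012107 (r = 0.98, and 0.91 without library 185) as well as mmu_piR_025007 (0.96 and 0.83), mmu_piR_000273 (0.93 and 0.65) and mmu_piR_030130 (0.92 and 0.68). For mmu_piR_012107 the lowest level was 0.433 CPM in library 185, and the other libraries had 46.2 to 228 CPM. Without library 185, Y RNA was the closest feature of none of these 4. The closest were then SNORD43 for mmu_piR_012107 (r = 0.92), SNORD66 for mmu_piR_025007 (0.89), SNORA54 for mmu_piR_000273 (0.79) and nuclear RNase P for mmu_piR_030130 (0.77). SNORD57 was most alike to mmu_piR_000216 (r = 0.93, and 0.94 without library 185). SNORD30 and SNORD41 were the 2 features most like mmu_piR_004086 and mmu_piR_022877, with r of 0.93 to 0.95 in both sets of libraries. A snoRNA was thus also the closest feature to members of low level, since mmu_piR_022877 had 0.0394 to 15.3 CPM in DP and 0.367 to 14.7 CPM in DR. Among the most abundant predictions the closest features varied in likeness. The highest r was 0.62 for novel_pir204 (with the hairpin of miR-3968), 0.70 for novel_pir26 and 0.72 for novel_pir212 (both with the hairpin of miR-328-3p), 0.85 for novel_pir27 (with the hairpin of miR-1247-5p) and 0.95 for novel_pir760 (with the predicted miRNA novel_mir86). Without library 185 the last 2 kept their closest feature (r = 0.83 and 0.95), while the closest became mature miR-296-3p for novel_pir204 (0.64) and mature miR-6971-3p for novel_pir26 (0.70) and novel_pir212 (0.64).

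**Figure D5:**
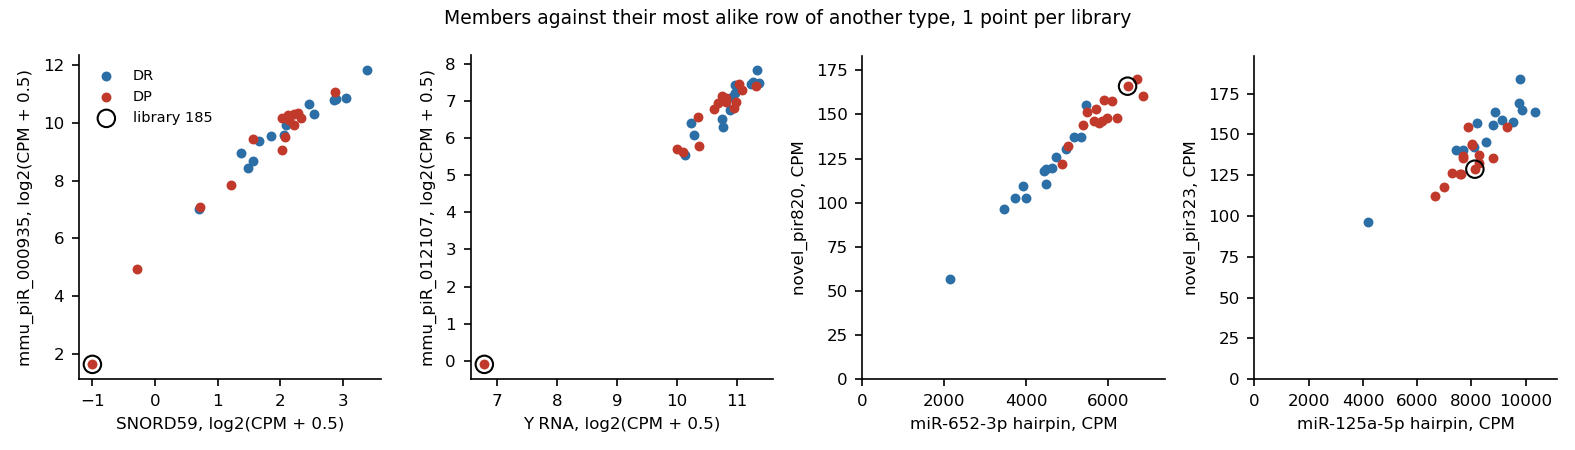
Levels of 4 members against the feature of another type most like them, 1 point per library, DR in blue and DP in red, with library 185 ringed. The first 2 panels use log2(CPM + 0.5) and show library 185 at the bottom left, and the last 2 use CPM and show points near a line through 0.

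The counts of some members stayed within a narrow range of percentages of a hairpin miRNA's count. Among predicted members these included novel_pir820 and novel_pir323. For novel_pir820 and the hairpin count of miR-652-3p, r was 0.97 with and without library 185, and the member's count was 2.34% to 2.84% of the hairpin's in the 28 other libraries (median 2.63%). The hairpin had 4882 to 6848 CPM in DP and 2148 to 5468 CPM in DR, and its log2 fold change was 0.43 (adjusted p = 6.77e-04, edgeR), beside 0.37 for novel_pir820 and 0.52 for the mature strand printed above. Both novel_pir820 and the hairpin had their lowest level in DR library 190. For novel_pir323 and the hairpin count of miR-125a-5p, r was 0.91, and the ratio was 1.54% to 2.30% (median 1.74%). Both had their lowest level in DR library 186, with 96.0 CPM for the member and 4174 CPM for the hairpin. The hairpin had 6645 CPM or more in each other library. Spearman's rho for this pair was 0.82. With the mature counts, r was 0.92 for novel_pir820 and miR-652-3p and 0.27 for novel_pir323 and miR-125a-5p. The database-named mmu_piR_028252 was at 11.6% to 16.5% of the hairpin count of miR-1839-5p (r = 0.93, and 0.89 without library 185). The coefficient of variation of this ratio was 8.33%, against 8.36% for novel_pir323 and 4.64% for novel_pir820, all without library 185. How reads that match several features were assigned is not stated in the sources used here, and whether these members share reads with the hairpins was not tested. The predicted miRNA novel_mir86 was the feature most like a further set. At r of 0.90 to 0.96 these were novel_pir760, novel_pir155, novel_pir154, novel_pir25, novel_pir180, novel_pir735, novel_pir247 and mmu_piR_019200, and at r of 0.63 to 0.84 novel_pir546, novel_pir190, novel_pir226 and novel_pir569. None of them passed the test between DP and DR, nor did novel_mir86 (log2 fold change -0.12, adjusted p = 0.938, edgeR).

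Most pairs of members were weakly correlated. Over all 13695 pairs of members, the median r of log2 CPM after subtracting group means was -0.0024, and 94 pairs reached 0.9, against 72 without library 185. The 5 pairs of highest r were novel_pir155 with novel_pir154 (0.99), novel_pir205 with novel_pir203 (0.99), novel_pir25 with novel_pir735 (0.99), mmu_piR_012107 with mmu_piR_025007 (0.98) and novel_pir180 with novel_pir25 (0.98). Only the pair of database-named members moved by more than 0.01 without library 185, to 0.89. Between database-named members, 25 of 528 pairs reached 0.9, and 10 did so without that library. Among predicted members, the median r was 0.45 over 48 pairs of consecutive numbers, 0.37 over 159 pairs with numbers 2 to 5 apart and 0.04 over 8571 pairs farther apart. What the numbering of predictions follows is not stated in the sources used here.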

How the data were processed

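The authors extracted total RNA with a miRNeasy kit and had small RNA sequenced on a BGISEQ-500 instrument, and Bowtie2 and the build mm10 are named in the submitters' processing notes. The deposited table holds raw counts per small RNA for each mouse, which were not normalized. How piRNAs were predicted and how shared reads were counted is not given in the sources used here. Reads assigned to genome regions (4 entries, such as exons and repeats) entered neither library sizes nor tests (6.89% to 12.1% of the counts of a library).

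Features with a mean count above 10 were fitted in edgeR 4.0.16 (R 4.3.3) with TMM scaling and the quasi-likelihood F-test, DP against DR without covariates, and p-values were adjusted by Benjamini-Hochberg over all 1891. Log2 CPM used a prior count of 2. The table gives 1 library per mouse by its labels. The sources used here do not mention molecular identifiers on the reads, so precision may be limited by amplification as well as by counts. Alternatives were other scalings, filters and tests (DESeq2 1.42.0, limma-voom in limma 3.58.1), terms for library number, and leaving out each library. Members, marker lists and the division at library number 200 were chosen with earlier results of these data known. The omission of library 185, the term for snoRNA and Y RNA level and the test of library number were added after seeing the data. Named members were the 10 most abundant, the called ones, 3 on each side of the limit, the 3 of highest and lowest variation, the 5 closest pairs, and the features most like them. Members named beyond this, for their gaps, their likeness to other types or their calls under alternatives, were chosen after their values were seen. The edgeR test of DP against DR was tried on simulated counts with known fold changes, and the other steps were not.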

Additional observations from a re-analysis of the deposited data

How the results depend on the processing

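The 6 members called higher in DP were called again under every other scaling, filter and test except that 4 remained with piRNA-annotated sequences alone in the fit and 0 from library 200 on, and that 5 of them met a minimum mean count of 200. The count of members called lower was less stable than its 4. It was 2 with library totals without TMM, 1 with no filter on low counts, 1 with piRNA-annotated sequences alone, 7 in libraries below 200, 0 in libraries from 200 on, 7 when members needed a mean count of 50, and 9 with the summed snoRNA and Y RNA level as a term. The number called over all features changed as well. It was 305 of 1891 in the fit without alternatives, 333 of 1891 without TMM, and 262 of 5328 with no filter. With piRNA-annotated sequences alone it was 7 of 491, and with the snoRNA and Y RNA term 332 of 1891. In libraries below 200 it was 300 of 1891, and from 200 on 6 of 1891. Leaving out 1 library at a time gave 6 to 7 members higher and 2 to 9 lower, the 2 without DR library 190 and the 9 without DP library 185. Over all 1891 features, 287 were called without library 190 and 329 without library 185. No called member changed direction in any alternative, and novel_pir706 kept its call in 5 of 18 alternatives other than leaving out a library. Library totals without TMM moved the median of all features from -0.02 to 0.05. Without library 185, database-named members with r of 0.9 or above with another type fell from 18 to 11 and their pairs from 25 to 10. The interaction with library number stayed at 0 calls among members with library totals and with a linear number. No paired analysis was possible because the labels name no pairing of DP with DR mice.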
